A study of Mus musculus with 15 samples.

Results

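The comparison described here is that of livers from wild-type mice on a high salt diet with livers from wild-type mice on a normal salt diet, 3 RNA-seq libraries against 3, over all genes. The members are 6 of the 15 libraries of the series, chosen by their titles (genotype wild type, diet high or normal salt, numbers 1 to 3). Per the labels the mice were male C57BL/6, the diets contained 8% NaCl (high salt) or 0.4% NaCl (normal salt), feeding began at 6 weeks of age, and the liver was taken at 6 months of age. The length of feeding is given as 4 months in 1 label and as 8 weeks in another. Another 3 wild-type libraries with the same strain, sex, age and diet labels (2 on high salt, numbered 1 and 2, and 1 on normal salt, numbered 2), called the additional libraries, were kept out of the comparison and served only as an outside check of its direction. Another 6 libraries, from mice labelled Sirt3 knockout on the same diets, entered the fit only to estimate the spread of each gene. By its title the study asked whether salt inflames the liver and how SIRT3, a mitochondrial deacetylase, takes part. The sources used here do not give the hour at which livers were taken or whether the mice had been fed.

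The liver makes much of the body's cholesterol and releases the glucose that other organs use between meals. Cholesterol synthesis is switched on by the transcription factor SREBP2 when sterols in the endoplasmic reticulum run low. Glucose output and genes such as Igfbp1 and G6pc are switched on in fasting and off by insulin, and both programs also follow the day through the circadian clock and the timing of meals. Inflammation in the liver is usually read from the acute phase proteins that hepatocytes secrete, from interferon-induced genes, and from the markers of resident and incoming immune cells.

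In these libraries the genes of cholesterol synthesis stood lower on high salt, by a median of -0.73 on the log2 scale, and Hmgcs1, Fdps and Dhcr7 were lower in all 3 high salt libraries than in any of the 3 normal salt libraries. Igfbp1, G6pc and Tat, genes of the fasting liver, were also lower in all 3, while the list they belong to had no common direction, with 16 higher and 15 lower of 31 and a median of 0.00. Inflammatory genes had no common direction. The acute phase and interferon response lists stood mostly lower on high salt, each with 1 normal salt library far above the rest. Among libraries that exclude it, the median differences were -0.24 (acute phase, libraries 1 and 2) and -0.47 (interferon response, the libraries numbered 3). Neutrophil markers were lower in 12 of 17. Kupffer cell and macrophage markers stood higher in 15 of 20 (median 0.36) and MHC class II genes in 8 of 9 (median 0.31). Set against each other by diet, the additional libraries did not repeat the direction of the acute phase, macrophage or MHC class II lists. They kept it, with smaller medians, for neutrophil markers (-0.35) and cholesterol synthesis (-0.22), while the interferon response was near 0 (-0.05). Clock genes such as Dbp differed widely between the diets in libraries 1 and 2, while the core clock and clock output lists had median log2 differences of -0.17 and -0.09 in the libraries numbered 3. No single gene passed the test across all genes.

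Total expected counts in the 6 libraries ranged from 15726897 to 19441054, with 12237 to 12721 genes at 10 counts or more. Every level quoted is in CPM, a count scaled to a common library size. Markers of hepatocytes were abundant, as the liver label has it: Alb, serum albumin, lay between 66645 and 97723 CPM, and the 19 hepatocyte-defining genes tested had a median log2 fold change of 0.03 (11 higher, 8 lower). In bulk liver RNA, fewer cells of a type and less RNA per cell cannot be told apart. The normal and high salt groups both carried Sirt3 transcript, with a log2 fold change of 0.47 ± 0.18 (SE, adjusted p = 1). It stood at 49.8, 52.8 and 53.2 CPM in normal salt libraries 1, 2 and 3 and at 83.9, 65.7 and 65.8 CPM in the high salt ones, without overlap. The additional libraries held it in the reverse order, at 48.8 and 47.4 CPM (high salt) and 74.1 CPM (normal salt).

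The libraries numbered 3 stood apart from numbers 1 and 2 on both diets. Over the 13051 genes tested, the root mean square difference in log2 CPM between the normal and high salt libraries numbered 3 was 0.504, close to the 0.460 between normal salt libraries 1 and 2 and the 0.521 between high salt libraries 1 and 2. Between a library numbered 3 and a library numbered 1 or 2 of the same diet it was 0.721 on average (0.646 to 0.770, 4 pairs). A gap of 0.727 on average separated a library numbered 3 from those numbered 1 and 2 of the other diet (0.657 to 0.769, 4 pairs). The same split showed in the effective gene lengths that RSEM derives from fragment length. Over 4351 well-covered genes the median deviation from each gene's median over all libraries was 2.56, 3.33 and -3.78 bases in normal salt libraries 1, 2 and 3. In the high salt ones it was 2.10, 1.76 and -2.81 bases. The additional high salt libraries, at -2.66 and -2.98 bases, lay with the libraries numbered 3, and the additional normal salt library, at 4.00 bases, lay with numbers 1 and 2, so that in the additional set diet and this split cannot be told apart. No label gives a reason for it, and its part in the results was not tested beyond the values with and without these libraries that follow.

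**Figure D1:**
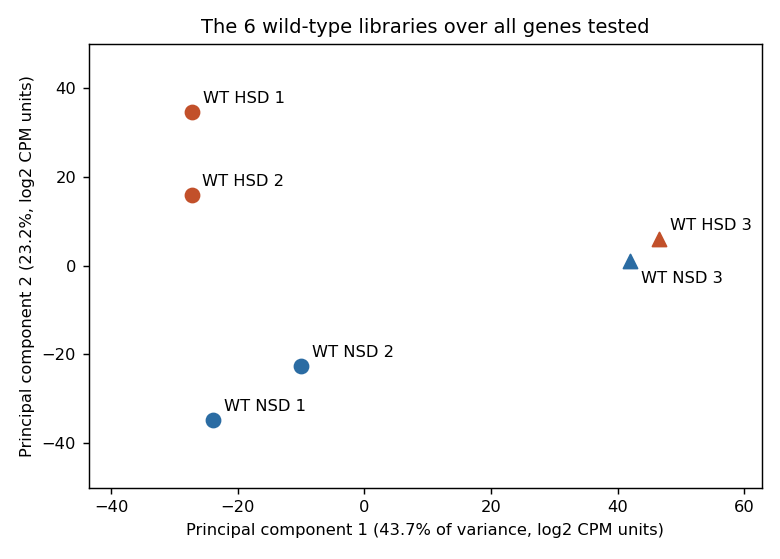
Principal components of the 6 wild-type libraries over all 13051 genes tested (log2 CPM, both axes in log2 CPM units). Blue marks normal salt and orange high salt, and triangles mark the libraries numbered 3. The first component (43.7% of the variance) separates the libraries numbered 3 from the others, and the second (23.2%) separates high salt libraries 1 and 2 from normal salt libraries 1 and 2.

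With edgeR's quasi-likelihood test and Benjamini-Hochberg adjustment over 13051 genes, 0 genes (0%) passed a threshold of 0.05 between the diets, the lowest adjusted p being 0.796. An unadjusted p under 0.05 was reached by 584 genes. DESeq2 called 8 of 17478 genes (0.0458%), Rapgef4, Wee1 and Gpnmb higher and Aqp8, Irf2bp2, Loxl4, Cdcp1 and Zbtb21 lower, while limma-voom called 0. With the library number as a block in a fit of the 6 wild-type libraries, 1 of 12494 genes was called (0.008%), Igfbp1, lower on high salt, and with that block in all 12 libraries 0 were called. Of all genes tested, 53.7% had a fold change above 0 and 46.3% below 0, and the median log2 fold change was 0.02. All 3 high salt libraries lay above all 3 normal salt libraries for 513 genes (3.93%) and below them for 621 (4.76%). A gene is called separated where the 3 libraries of a diet did not overlap the 3 of the other, and those shares are the background for the counts of such genes.

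What separated libraries 1 and 2 was mostly not found between the libraries numbered 3. Without number 3, 2 against 2, the same edgeR fit called 30 genes, 7 higher and 23 lower. Of these, 2 of the 7 (28.6%) and 9 of the 23 (39.1%) had the same sign in the pair numbered 3. Among genes higher by at least 1 log2 unit in libraries 1 and 2 without overlap, 60 of 109 (55%) had the same sign in that pair, and among the lower ones 111 of 215 (51.6%), where all genes tested gave 50.6%. For cholesterol synthesis the median difference was -0.81 between libraries 1 and 2 and -0.59 between the libraries numbered 3.

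Of the 21 genes of cholesterol synthesis, 20 had a fold change below 0, none passed the adjusted test, and 15 (71.4%) were separated in the lower direction, where 4.76% of all genes were. The list's mean log2 level, relative to the mean of the 6 libraries, was 0.43, 0.34 and 0.35 in normal salt libraries 1 to 3 and -0.34, -0.58 and -0.20 in high salt libraries 1 to 3. The list was thus lower on high salt both in libraries 1 and 2 and in the pair numbered 3. Leaving out each library in turn kept the list's median log2 fold change between -0.85 and -0.65.

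Values of single libraries are given in the order 1, 2 and 3, normal salt first, and a value in parentheses is the log2 fold change, with its SE where an error is given. At the entry to the pathway, Acat2, which condenses acetyl-CoA in the cytosol, stood at 119, 102 and 121 CPM in normal salt libraries 1, 2 and 3 and at 71, 61.2 and 76.1 CPM in the high salt libraries (log2 fold change -0.71 ± 0.28, SE). Hmgcs1, which makes HMG-CoA (Entrez ID 208715, GRCm38.p6 chromosome 13, 119690351 to 119708260), stood at 574, 426 and 420.1 CPM on normal salt and at 137, 93.5 and 225 CPM on high salt. Its fold change of -1.64 ± 0.84 on the log2 scale was the largest of the list, and its groups did not overlap, although high salt library 3 lay well above the other two.

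In the middle of the pathway, Pmvk, a phosphomevalonate kinase, stood at 75.2, 92.1 and 62.4 CPM on normal salt and 29.6, 23.4 and 51.7 CPM on high salt (-1.13 ± 0.47). Mvd, the decarboxylase that follows, stood at 65.7, 39.6 and 24.7 CPM and 18.9, 12.7 and 12.7 CPM (-1.55 ± 0.71), with normal salt library 1 high and high salt libraries 2 and 3 alike. Fdps, which makes farnesyl diphosphate, was at 426, 386 and 404 CPM and 192, 168 and 279.6 CPM (-0.92 ± 0.53). Fdft1, squalene synthase, followed at 278, 223 and 194 CPM and 147, 137 and 111 CPM (-0.81 ± 0.44). All 4 genes were separated, with high salt library 3 the closest to normal salt for Pmvk and Fdps and the farthest from it for Fdft1.

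In the sterol part of the pathway, Sqle, the squalene epoxidase, stood at 90.1, 93.7 and 80.6 CPM on normal salt and 51.2, 39 and 61.2 CPM on high salt (-0.80 ± 0.50). The demethylase gene Cyp51 was at 181, 187 and 278 CPM and 123, 80.4 and 164 CPM (-0.81 ± 0.59). Msmo1, a sterol-C4-methyl oxidase, was at 234, 245 and 277 CPM and 159.9, 121 and 136 CPM (-0.86 ± 0.58). These were separated too, as was the late enzyme Sc5d, at 761, 666 and 714 CPM and 327, 467 and 491 CPM (-0.73 ± 0.34). Dhcr7, which reduces 7-dehydrocholesterol to cholesterol, stood at 162, 142 and 137 CPM against 69.3, 78.3 and 74.2 CPM (-0.99 ± 0.40), with little spread within each diet. The members that overlapped included Mvk, Ggps1, Tm7sf2, Hsd17b7 and Ebp. Ggps1, which leads away from cholesterol to geranylgeranyl diphosphate, had a log2 fold change of 0.01.

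The promoter of Hmgcs1 is shown as the member with the largest difference in the list; it is the RefSeq window from 250 bases before to 50 bases after the transcription start (GRCm38.p6, chr13:119690101-119690400, plus strand). Capitals mark a match to TCACNCCAC, a form of the sterol regulatory element bound by SREBP, searched on both strands:
Hmgcs1: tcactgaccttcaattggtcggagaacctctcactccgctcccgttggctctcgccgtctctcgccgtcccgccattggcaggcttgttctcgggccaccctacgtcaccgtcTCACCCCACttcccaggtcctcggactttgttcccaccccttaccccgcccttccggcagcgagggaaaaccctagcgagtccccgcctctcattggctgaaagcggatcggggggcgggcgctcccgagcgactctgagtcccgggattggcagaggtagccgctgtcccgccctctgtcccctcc
A match to these letters was present in 1.24% of the 32851 mouse promoter windows. Among the 16 of 21 cholesterol synthesis genes that had a window, Hmgcs1 was the 1 gene with a match (6.25%). A gene was counted when any of its windows matched, and some genes have several, so shares of genes and of windows have unlike bases. A match describes the letters and is no measure of binding.

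**Figure D2:**
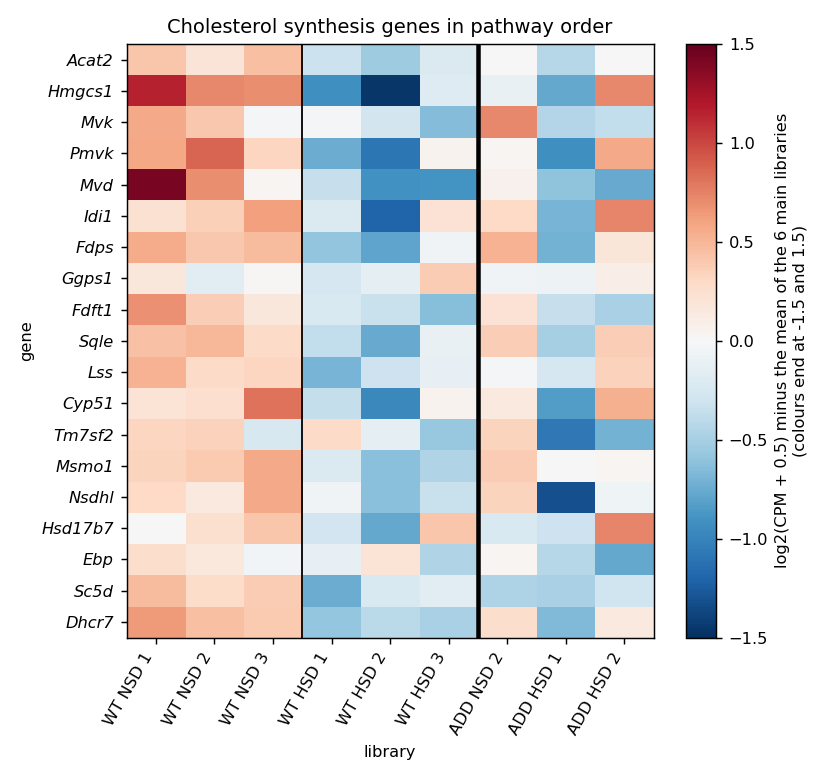
Levels of cholesterol synthesis genes in each wild-type library, in pathway order from top to bottom, as log2(CPM + 0.5) minus the mean of the 6 main libraries (colour scale ending at -1.5 and 1.5). Normal salt (WT NSD) libraries 1 to 3 are at the left, high salt (WT HSD) libraries in the middle, and the additional libraries (ADD) at the right of the thick line. The main normal salt columns are mostly red and the high salt ones mostly blue, with library 3 of high salt paler than libraries 1 and 2.

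The additional libraries were set beside main libraries of like effective length, the high salt ones beside libraries numbered 3 and the normal salt one beside numbers 1 and 2, and each was counted on its own diet's side when it lay nearer to that diet's level; this comparison was chosen after the data had been seen. Over all genes the share on the own side was 41.5% for additional high salt library 1, 56.2% for additional high salt library 2 and 37.4% for the additional normal salt library. For cholesterol synthesis the counts were 17, 12 and 16 of 21. Acat2, Mvk, Fdps, Fdft1, Tm7sf2, Msmo1 and Nsdhl were on the own side in all 3. The own side is set by the main libraries alone and does not require the additional diets to differ. Between the additional diets 6 of the 21 genes stood higher and 15 lower on high salt, with a median of -0.22. Acat2 stood at 65.6 and 88.1 CPM in the additional high salt libraries and at 88 CPM in the normal salt one. Fdps stood at 177 and 328 CPM in the additional high salt libraries and at 416 CPM in the normal salt one. Hmgcs1, at 152 and 427 CPM (high salt) and 239.6 CPM (normal salt), had 1 high salt library at the level of the main normal salt group. Tested as a contrast of its own, 2 libraries against 1, the additional set gave 3 calls of 13864 genes (0.0216%), none of them in this pathway, and a test of the difference between the salt effects of the 2 sets called 0 genes (smallest adjusted p 0.355, 1800 at an unadjusted p under 0.05).

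Genes that sense and handle sterols did not share 1 direction. Of 22 tested, 13 stood higher and 9 lower, and the median log2 fold change was 0.09. Among them 4 were separated upward and 4 downward (36.4%, against 8.69% of all genes tested). Insig1, which holds SREBP in the endoplasmic reticulum and is itself an SREBP target, stood at 647, 438 and 452 CPM on normal salt and 196, 329.9 and 281 CPM on high salt (-0.93 ± 0.37). Insig2 (-0.74), Srebf2, the gene for SREBP2 (-0.47), and Rdh11 (-1.03) were the other members separated downward. On the side of export, Abcg8, which forms with Abcg5 the transporter that moves sterols into bile, stood at 54.8, 64 and 86.1 CPM on normal salt and 129.9, 109 and 112 CPM on high salt (0.78 ± 0.30), while Abcg5 overlapped (0.75). Scarb1, the HDL receptor, stood at 131, 160.3 and 143 CPM and 196, 196 and 189 CPM (0.42 ± 0.19). The 4 members separated upward were Abcg8, Scarb1 and the sterol transporters Abcg1 (0.58) and Npc1 (0.58). The own side held 10, 15 and 4 of the 22 in the additional libraries, and Insig1 stood there at 703 and 248 CPM (high salt) and 228 CPM (normal salt).

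Of 24 lipogenic genes 15 stood lower, with a median of -0.18. Among them 3 were separated, all downward (12.5%, against 8.69% of all genes tested in either direction). Acss2, which makes acetyl-CoA from acetate, stood at 418, 262 and 399 CPM on normal salt and 153, 133 and 243 CPM on high salt (-1.02 ± 0.34). Acly, which makes it from citrate, stood at 263, 253 and 345 CPM and 82.4, 189.9 and 208 CPM (-0.84 ± 0.36). All 3 additional libraries lay nearer to their own diet's main level. Among themselves they did not separate the diets, at 142 and 266 CPM (high salt) and 192 CPM (normal salt). Gpam, of triglyceride synthesis, was the other separated gene (-0.64). Fasn (-0.51) and Scd1 (-0.45), the fatty acid synthase and desaturase, overlapped between diets.

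In fatty acid oxidation 31 of 40 genes stood higher and 9 lower, with a median of 0.25. Among them 5 were separated upward and 1 downward (15%, against 8.69% of all genes tested). Ppara, the nuclear receptor that drives this program in fasting, stood at 123, 149 and 145 CPM on normal salt and 225, 210.4 and 204 CPM on high salt (0.62 ± 0.18). The list's median was 0.38 between libraries 1 and 2 and -0.07 between the libraries numbered 3. Pdk4, a PPAR-alpha target that spares glucose, was the member separated downward, at 29.5, 14.4 and 10.1 CPM and 1.14, 1.72 and 7.08 CPM (-2.42 ± 0.73). Fgf21, a fasting hormone, showed no order by diet: 1.31, 1.22 and 4.45 CPM on normal salt and 30.5, 0.401 and 25.5 CPM on high salt.

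Glucose production and the fasting response had no common direction (16 higher and 15 lower of 31, median 0.00). Of the members, 5 were separated downward and 2 upward (22.6%, against 8.69% of all genes tested). Igfbp1, an IGF-binding protein that insulin represses (Entrez ID 16006, GRCm38.p6 chromosome 11, 7197787 to 7202546), stood at 66.2, 165 and 160.1 CPM on normal salt and 9.31, 21.3 and 23.8 CPM on high salt. Every high salt library lay well below every normal salt library, and the difference was nearly as large between the libraries numbered 3 (-2.72 in log2) as between numbers 1 and 2 (-2.85). The log2 fold change was -2.84 ± 0.78 (edgeR adjusted p = 1), and with the library number as a block the adjusted p was 0.00105 (edgeR, 6 libraries). The labels give no pairing by number. In deviations from the diet mean, high salt library 2 correlated more with normal salt library 1 (0.40) than with normal salt library 2 (0.11). Igfbp1 was not called with the block in all 12 libraries, nor with a term for the libraries numbered 3 in its place. The additional libraries held it at 6.05 and 45.6 CPM (high salt) and 221 CPM (normal salt), so that the diets did not overlap across all 9 wild-type libraries.

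G6pc, the glucose-6-phosphatase that releases glucose (Entrez ID 14377, GRCm38.p6 chromosome 11, 101367716 to 101377903), stood at 315, 378 and 892 CPM on normal salt and 179, 148 and 278 CPM on high salt (-1.39 ± 0.57). With 9.91 and 171 CPM in the additional high salt libraries and 433 CPM in the normal salt one, it too did not overlap across the 9 libraries, although additional high salt library 1 lay far below all others. Tat, a tyrosine aminotransferase under glucocorticoid and fasting control, stood at 869, 1581 and 1598 CPM and 586, 746 and 755 CPM (-0.95 ± 0.27), and at 909.6, 553 and 1275 CPM in the same additional libraries. Its groups were separated in the main libraries, while additional high salt library 1 lay above normal salt library 1. Neither gene passed the adjusted test with or without the block.

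Other members of the same list did not follow. Pck1, which commits carbon to glucose, stood at 317, 1592 and 1934 CPM on normal salt and 1236, 764 and 639 CPM on high salt, with normal salt library 1 the lowest of the 6. Gys2, the liver glycogen synthase, was higher, at 103, 99.4 and 123 CPM and 264, 239 and 129 CPM (0.96 ± 0.32), but hardly so between the libraries numbered 3, and none of the additional libraries lay on its own side. Igfbp2 was higher, at 503, 394 and 391 CPM and 743, 873 and 511 CPM (0.72 ± 0.28). A pair of genes outside the lists, named after their values were seen, lay on the own side in all additional libraries: Slc25a25, a mitochondrial carrier, at 115, 169 and 297 CPM and 105, 21.7 and 59.6 CPM (-1.64 ± 0.49), and Ddit4, a stress-induced inhibitor of mTOR, at 8.97, 6.37 and 4.87 CPM and 3.9, 2.29 and 2.98 CPM (-1.14 ± 0.37).

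**Figure D3:**
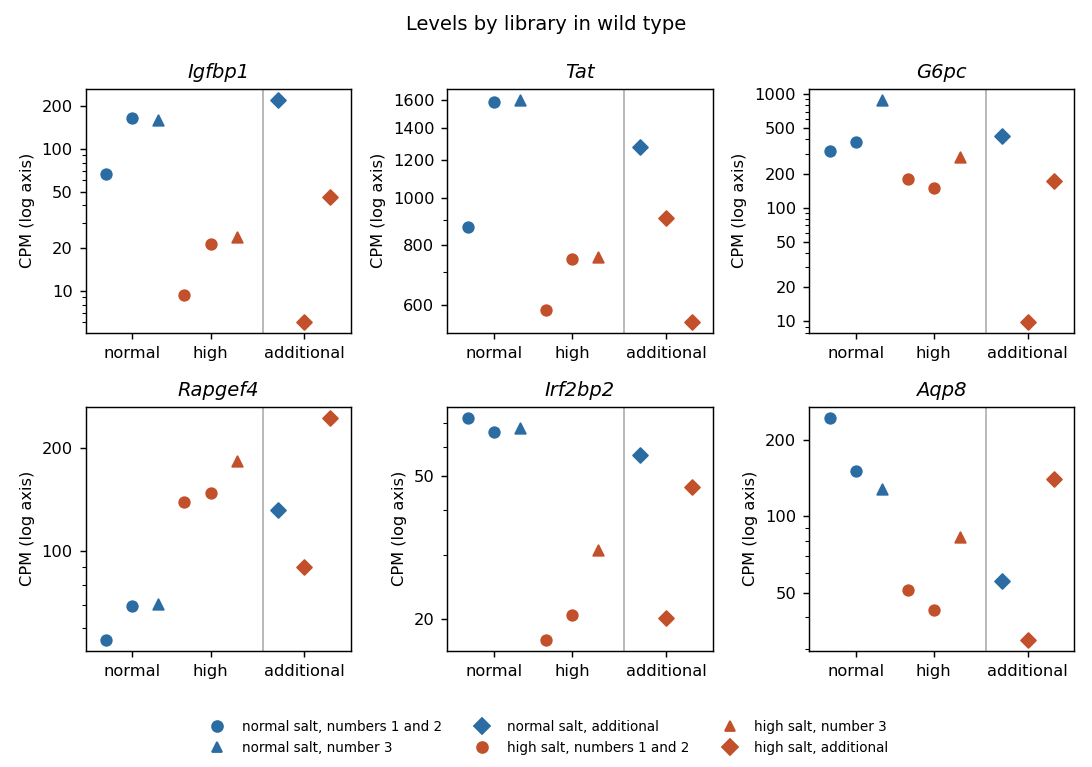
CPM on a log axis, 1 point per wild-type library, for Igfbp1, Tat, G6pc, Rapgef4, Irf2bp2 and Aqp8. Blue is normal salt and orange high salt, circles are libraries 1 and 2, triangles the libraries numbered 3 and diamonds the additional libraries, right of the grey line. In each panel the 3 main libraries of a diet lie on 1 side of the other 3, and for Igfbp1 and G6pc the additional libraries keep to the same sides.

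The circadian clock runs through a loop in which BMAL1 (Arntl) with CLOCK or NPAS2 switches on Per, Cry, Rev-erb, Dbp and Tef genes. The products of the Per, Cry and Rev-erb genes then switch the loop off, so that liver levels depend on the hour. The core clock list had 11 genes higher and 7 lower of 18, with a median of 0.22, and the 19 clock outputs 12 higher and 7 lower, with a median of 0.49. Between libraries 1 and 2 the medians were 0.48 and 0.71, and between the libraries numbered 3 they were -0.17 and -0.09. Both medians thus had the opposite sign in the libraries numbered 3.

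Dbp, a bZIP output factor of the clock (Entrez ID 13170, GRCm38.p6 chromosome 7, 45705100 to 45710203), stood at 1.31, 0.868 and 18.2 CPM in normal salt libraries 1, 2 and 3 and at 237, 228 and 12.4 CPM in high salt libraries 1, 2 and 3. Libraries 1 and 2 of the diets were far apart, while the libraries numbered 3 lay between them and close to each other. Its log2 fold change was 4.55 ± 1.44 over the 3 against 3. Tef, its relative, stood at 18.9, 22.7 and 77.4 CPM and 165, 178 and 75.9 CPM, and Per3, a repressor of the loop, at 1.66, 1.22 and 11.3 CPM and 30.5, 50.1 and 7.5 CPM. Both showed the same order, with libraries 1 and 2 apart and the libraries numbered 3 level.

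Genes that peak opposite to Dbp were lower in the same libraries. Npas2 stood at 14.3, 13.8 and 1.56 CPM on normal salt and 0.0541, 0.172 and 3.17 CPM on high salt, Arntl at 20.6, 24.8 and 15.3 CPM and 0.757, 0.916 and 19.6 CPM, and Nfil3, a repressor that competes with DBP, at 55.5, 51.6 and 38.8 CPM and 12, 11.4 and 35.6 CPM. In all 3, high salt libraries 1 and 2 were the low ones and high salt library 3 was at or above the level of normal salt library 3, except for Nfil3, where it lay just below. Wee1, a cell cycle kinase under clock control, was separated, at 3.14, 2.55 and 3.13 CPM and 20.3, 15.2 and 3.87 CPM (2.16 ± 0.51, adjusted p 0.0168 in DESeq2 and 1 in edgeR), but the libraries numbered 3 differed by only 0.27 in log2. Alas1, the first enzyme of heme synthesis, stood at 129, 152 and 136 CPM and 613, 458 and 144 CPM in the same order.

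The additional libraries did not repeat the order by diet of libraries 1 and 2 in these genes. Dbp stood at 103 and 2.08 CPM in the additional high salt libraries and at 247 CPM in the normal salt one, which is the reverse order. Wee1 (13 and 6.51 against 14.4 CPM) and Nfil3 (9.91 and 33.7 against 9.2 CPM) were also reversed. Tef, Per3 and Npas2 had no order by diet, with Npas2 at 0.14, 4.76 and 0.35 CPM. The own side held 3, 14 and 1 of the 18 core clock genes and 10, 11 and 1 of the 19 outputs. Set side by side, the high salt library with Dbp at 2.08 CPM had Hmgcs1 at 427 CPM, and the one with Dbp at 103 CPM had Hmgcs1 at 152 CPM. The normal salt library with Dbp at 247 CPM had Hmgcs1 at 239.6 CPM and Igfbp1 at 221 CPM. The hour of collection was not given, and the part of clock time in the results on cholesterol and fasting genes was not tested.

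The windows of Ciart, a clock repressor gene (chr3:95882179-95882478, minus strand), and Per3 (chr4:151044616-151044915, minus strand) are shown, 5′ to 3′ on the gene's strand, because both genes followed Dbp and hold several matches (RefSeq, GRCm38.p6). Capitals mark the E-box CACGTG, bound by BMAL1 with CLOCK, in Ciart, and TTANGTAA, a form of the D-box bound by DBP, TEF and NFIL3, in Per3:
Ciart: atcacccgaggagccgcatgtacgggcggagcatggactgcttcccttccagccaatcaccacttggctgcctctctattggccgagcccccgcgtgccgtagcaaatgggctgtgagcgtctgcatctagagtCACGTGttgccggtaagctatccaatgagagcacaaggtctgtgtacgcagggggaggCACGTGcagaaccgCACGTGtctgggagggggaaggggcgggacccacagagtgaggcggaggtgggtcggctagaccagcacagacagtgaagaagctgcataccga
Per3: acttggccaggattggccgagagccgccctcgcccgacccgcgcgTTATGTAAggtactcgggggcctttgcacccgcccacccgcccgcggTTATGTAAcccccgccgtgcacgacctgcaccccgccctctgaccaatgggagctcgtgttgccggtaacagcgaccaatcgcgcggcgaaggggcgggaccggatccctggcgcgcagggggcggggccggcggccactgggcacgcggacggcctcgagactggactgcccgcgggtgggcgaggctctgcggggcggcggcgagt
Genes were again counted when any of their windows matched, which raises the share of genes with several windows against the share of windows. The E-box was found in 7.15% of all windows, in 4 of the 13 core clock genes with a window (30.8%) and in 3 of the 15 outputs (20%). The D-box form was found in 2.32% of all windows, in 1 of 13 core clock genes and in 0 of 15 outputs. AGGTCA, the core of the element bound by REV-ERB and ROR, was found in 16.3% of windows, in 4 of 13 (30.8%) and in 4 of 15 (26.7%). Ciart stood at 0.628, 0.174 and 3.79 CPM on normal salt and 23.7, 14.5 and 1.91 CPM on high salt.

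**Figure D4:**
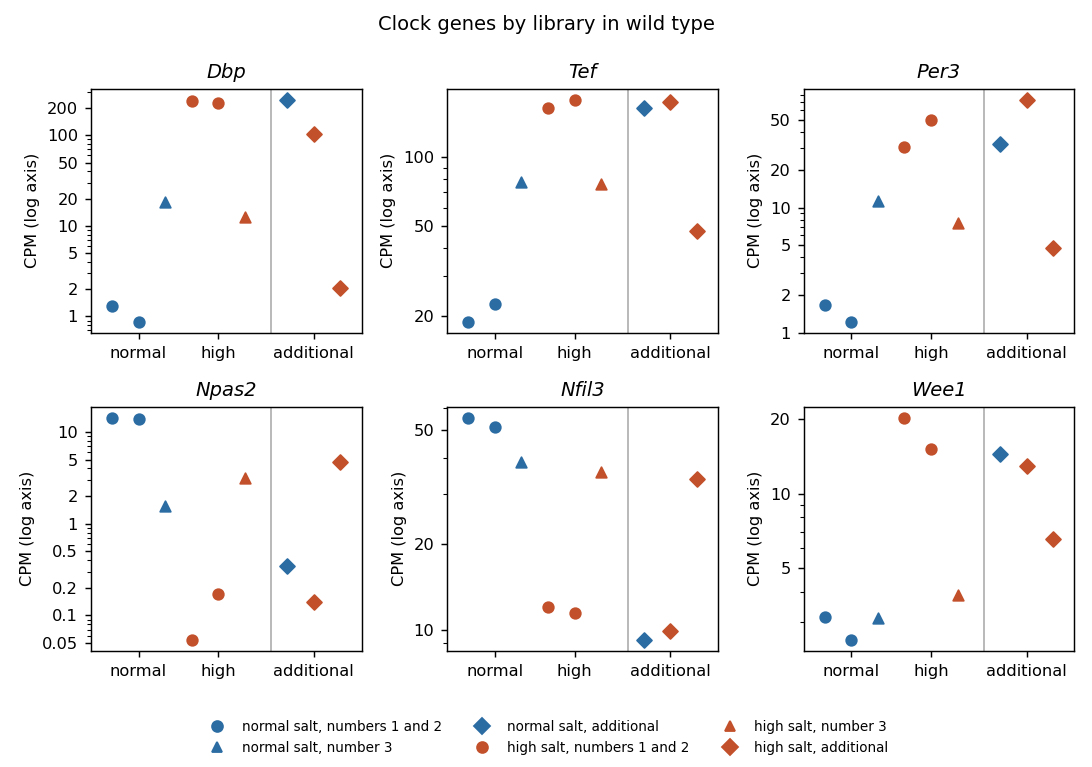
CPM on a log axis, 1 point per wild-type library, for the clock genes Dbp, Tef, Per3, Npas2, Nfil3 and Wee1. Blue is normal salt and orange high salt, circles are libraries 1 and 2, triangles the libraries numbered 3 and diamonds the additional libraries, right of the grey line. Circles of the 2 diets lie far apart, and triangles lie close together. The diamonds lie in the reverse order for Dbp, Nfil3 and Wee1 and have no order by diet for Tef, Per3 and Npas2.

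All 33 interferon-response genes stood lower on high salt, with a median of -0.90, but 3 were separated (9.09%, against 4.76% of all genes) and none passed the adjusted test. The list's mean log2 level was 1.33, -0.36 and -0.02 in normal salt libraries 1, 2 and 3 and -0.02, -0.35 and -0.58 in the high salt libraries. Normal salt library 1 thus lay far above the other 5, and without it the median was -0.12. The median difference was -0.62 between libraries 1 and 2 and -0.47 between the libraries numbered 3. Irf7, the factor that amplifies the response, stood at 162, 39.4 and 47.9 CPM on normal salt and 53.6, 34.3 and 31.6 CPM on high salt. Ifit1, which binds viral RNA, stood at 24.9, 3.41 and 4.87 CPM and 7.2, 5.27 and 2.75 CPM, and Isg15, a ubiquitin-like modifier, at 29.6, 5.21 and 6.01 CPM and 9.31, 6.41 and 2.52 CPM. Without normal salt library 1 the log2 fold changes of Ifit1 and Isg15 turned to 0.29 and 0.11.

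The 3 separated members were Oasl1, Dhx58 and Ddx58. Oasl1, which restrains translation of Irf7, stood at 50.8, 20.3 and 19.5 CPM on normal salt and 15.1, 13.9 and 7.74 CPM on high salt (-1.30 ± 0.36). Dhx58 and Ddx58, an RNA sensor pair, stood at 30, 11.1 and 9.2 against 8.87, 7.21 and 6.01 CPM (-1.19 ± 0.37) and at 42.3, 23.7 and 34.3 against 20.8, 21.8 and 22.3 CPM (-0.63 ± 0.23). In none of the 3 genes was an additional library on its own diet's side, and over the list the own side held 3, 8 and 19 of 33. The reads of Ifit and Oas genes can be shared between near-identical copies and are uncertain in that respect.

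The interferon-induced GTPases, which act against parasites and bacteria inside cells, stood lower in 15 of 17, with a median of -0.62 and 0 separated. Irgm1 was at 83.9, 40.2 and 92.4 CPM on normal salt and 37.8, 29.3 and 47.5 CPM on high salt, with normal salt libraries 1 and 3 high and library 2 in the range of high salt. The additional libraries went the other way, with 16 of 17 higher on high salt and a median of 1.54, and the own side held 2, 4 and 9 of the 17. Irgm1 stood there at 170.0 and 60.4 CPM (high salt) and 37.7 CPM (normal salt). In the MHC class I list 18 of 19 stood lower, by a median of -0.16, while in the MHC class II list 8 of 9 stood higher, by a median of 0.31. Both medians had the opposite sign in the additional set, at 0.14 (11 of 19 higher) and -0.44 (1 of 9 higher). The own side held 3, 4 and 13 of the 19 class I genes and 8, 9 and 1 of the 9 class II genes.

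The windows of Ifit1 (chr19:34640639-34640938, plus strand) and Isg15 (chr4:156200769-156201068, minus strand) are shown because both were high in the same normal salt library (RefSeq, GRCm38.p6). Capitals mark GAAANNGAA, a form of the interferon-stimulated response element, or its complement on the other strand; overlapping matches run together:
Ifit1: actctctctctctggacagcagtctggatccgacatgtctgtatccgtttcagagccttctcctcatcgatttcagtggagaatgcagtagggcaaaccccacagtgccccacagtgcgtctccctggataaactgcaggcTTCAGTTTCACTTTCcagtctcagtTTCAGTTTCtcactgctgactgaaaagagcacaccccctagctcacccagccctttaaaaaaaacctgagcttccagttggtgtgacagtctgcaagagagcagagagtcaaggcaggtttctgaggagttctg
Isg15: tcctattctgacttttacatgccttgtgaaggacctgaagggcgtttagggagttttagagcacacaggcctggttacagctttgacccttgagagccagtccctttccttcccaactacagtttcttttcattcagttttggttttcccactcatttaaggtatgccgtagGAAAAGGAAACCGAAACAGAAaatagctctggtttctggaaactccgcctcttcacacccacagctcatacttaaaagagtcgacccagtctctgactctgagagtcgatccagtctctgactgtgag
Each window held 3 matches. The motif was found in 8.56% of all windows and, in any of their windows, in 16 of the 25 interferon-response genes with a window (64%).

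Acute phase proteins stood lower in 24 of 28, with a median of -0.27. Among them 2 were separated, both downward (7.14%, against 8.69% of all genes tested in either direction). Their mean log2 level was 0.92 in normal salt library 3 and between -0.47 and 0.03 in the other 5. The median difference was -0.24 between libraries 1 and 2 and -0.53 between the libraries numbered 3. Saa1, a major acute phase protein, stood at 55.8, 53.8 and 923 CPM on normal salt and 34.2, 50.4 and 42.6 CPM on high salt. Saa2 was at 18.5, 13.3 and 551 CPM and 6.44, 8.99 and 13.3 CPM, and Lcn2, an iron-chelating lipocalin, at 16.1, 10.8 and 215 CPM and 5.52, 19.8 and 5.27 CPM. Normal salt library 3 was the 1 library of the 6 with high values, and additional high salt library 1 was another, with Saa1 at 936 CPM and Lcn2 at 112 CPM. Saa1 in the additional normal salt library stood at 121 CPM. In the additional set 19 of 28 stood higher on high salt, with a median of 0.48, and the own side held 2, 15 and 17 of the 28. Orm2 turned from a log2 fold change of -2.03 to 0.26 without normal salt library 3.

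Of 25 cytokines and NF-kB targets tested, 12 stood higher and 13 lower, with a median of -0.03. Among them 1 was separated upward and 4 downward (20%, against 8.69% of all genes tested). Cxcl1, a neutrophil-attracting chemokine, was separated downward, at 23.9, 42.5 and 11.7 CPM on normal salt and 7.03, 7.21 and 6.57 CPM on high salt (-1.91 ± 0.87). Inflammasome and pyroptosis genes stood higher in 9 of 16, with a median of 0.11, and 1 of them was separated (6.25%). This was Nlrp12, at 17.1, 19.3 and 13.8 CPM and 37.7, 21.4 and 36.8 CPM (0.93 ± 0.29). None of these genes passed the adjusted test.

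Markers of immune cells stood out in single libraries. Kupffer cell and macrophage markers stood higher in 15 of 20, with a median of 0.36; their mean log2 level was 0.74 in high salt library 1 and between -0.29 and 0.01 in the other 5, and the summed level was 438 to 589 CPM on normal salt and 435 to 760 CPM on high salt. In the additional set 4 of the 20 stood higher on high salt, with a median of -0.79, and the own side held 9, 10 and 3 of the 20. Csf1r, the receptor for CSF1, stood at 19.8, 26 and 19.4 CPM on normal salt and 47.9, 22.7 and 22.9 CPM on high salt. Mpeg1, a pore-forming protein of macrophages, was the 1 marker separated (5%, against 8.69% of all genes tested). It was lower, at 99.5, 50.4 and 99 CPM and 43.1, 45.9 and 45.2 CPM. Neutrophil markers stood lower in 12 of 17, with a median of -1.05, and summed to 34.7 to 231 CPM on normal salt and 20.5 to 42.1 CPM on high salt, where the highest sum, in normal salt library 3, held 215 CPM of Lcn2, also an acute phase protein. In the additional set 5 neutrophil markers stood higher and 12 lower on high salt, with a median of -0.35. The list had 1 marker separated upward and 1 downward (11.8%). Others were near 0: S100a8 was at 1.6, 1.79 and 0.902 CPM and 0.487, 1.03 and 0.0466 CPM.

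Markers of sinusoidal endothelium stood higher in 20 of 21, by a median of 0.19 with 0 separated, and summed to 273 to 465 CPM on normal salt and 378 to 505 CPM on high salt. Those of stellate cells and matrix stood higher in 15 of 20, by a median of 0.16 with 0 separated, and summed to 328 to 449 CPM and 370.2 to 457 CPM. The additional set went the other way, with 3 of 21 endothelial (median -0.37) and 2 of 20 stellate and matrix markers (median -0.87) higher on high salt. Cholangiocyte markers stood lower in 7 of 9, with a median of -0.36 and sums of 114 to 152 CPM and 120.2 to 127 CPM, and Krt19, a bile duct keratin, was at 3.2, 1.97 and 1.74 CPM on normal salt and 0.379, 0.973 and 1.26 CPM on high salt. T and NK cell markers (7 higher, 8 lower of 15) summed to 12.1 to 17.6 CPM and 11.2 to 16.1 CPM, and B and plasma cell markers (1 higher, 7 lower of 8) to 12.6 to 26.3 CPM and 12.7 to 15.7 CPM. Of the T and NK cell markers 2 were separated upward and 4 downward (40%), of the cholangiocyte markers 2 downward (22.2%) and of the B and plasma cell markers 0, against 8.69% of all genes tested. No marker in the table for these cell types was at 0 in all 6 libraries. The part of these cells in the other results was not tested.

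Cell cycle genes stood higher in 23 of 26, with a median of 0.42, and 4 were separated upward (15.4%, against 3.93% of all genes). Their mean log2 level was 0.91, 0.27 and -0.42 in high salt libraries 1, 2 and 3 and -0.30, -0.21 and -0.25 on normal salt. The median was 0.57 between libraries 1 and 2 and -0.13 between the libraries numbered 3, and it was 0.13 without high salt library 1. Ccne1, cyclin E1, stood at 0.571, 0.579 and 0.421 CPM on normal salt and 4.92, 1.83 and 0.652 CPM on high salt. Ccnb2, cyclin B2, stood at 0.114, 0.289 and 0.361 CPM and 4.65, 0.801 and 0.419 CPM. The same 2 high salt libraries were high for Gpnmb, a transmembrane protein of lipid-laden macrophages and stellate cells, which stood at 0.171, 0.289 and 0.301 CPM on normal salt and 41, 17.7 and 0.373 CPM on high salt (adjusted p 0.000411 in DESeq2, 1 in edgeR). In the additional libraries Gpnmb was at 0.838 and 1.11 CPM (high salt) and 0.524 CPM (normal salt). Ccnb2 was there in the reverse order, at 0.093 and 0.323 CPM (high salt) and 0.757 CPM (normal salt). Of the 26 cell cycle genes 14 stood higher and 12 lower on high salt in the additional set, with a median of 0.04.

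The growth hormone axis had 18 genes higher and 12 lower of 30, with a median of 0.21. Among the 30, 5 were separated upward and 3 downward (26.7%, against 8.69% of all genes tested). In the additional set 6 stood higher and 24 lower on high salt, with a median of -0.69. The own side held 19, 18 and 13 of the 30. Socs2, a target and inhibitor of growth hormone signalling, stood at 7.31, 8.33 and 3.43 CPM on normal salt and 27.3, 22.8 and 38.6 CPM on high salt (2.22 ± 0.96), and Cish, another such inhibitor, at 3.26, 3.41 and 3.07 CPM and 21.2, 8.13 and 9.79 CPM (2.00 ± 1.13). The additional libraries did not separate the diets for Socs2, at 14.9 and 91.9 CPM (high salt) and 39.6 CPM (normal salt). Stat5a, a transcription factor of this pathway, was lower, at 17.7, 17.9 and 14.8 CPM and 8.22, 6.47 and 12.5 CPM (-0.88 ± 0.22). The additional libraries held Stat5a in the reverse order, at 12.2 and 14.3 CPM (high salt) and 6.47 CPM (normal salt). Egfr, a growth factor receptor, was higher, at 340.1, 306 and 199 CPM and 459, 492 and 387 CPM (0.66 ± 0.34). Mup7, a major urinary protein induced by pulsed growth hormone, stood at 19307, 27782 and 4438 CPM on normal salt and 19320.4, 16859 and 1004 CPM on high salt, and was low in both libraries numbered 3. Reads of Mup genes are shared among near-identical copies, and their values are uncertain.

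Lists tied to salt and water themselves had medians near 0. Of 19 genes of osmotic stress and its factor NFAT5, 13 stood higher and 6 lower, with a median of 0.08. Among them 3 were separated, all downward (15.8%, against 8.69% of all genes tested in either direction). Slc6a8, a creatine transporter of that program, stood at 6.51, 7.47 and 5.89 CPM on normal salt and 10, 7.27 and 11 CPM on high salt (0.51 ± 0.22), and Sgk1, a salt-sensitive kinase, at 6.91, 19.4 and 28.2 CPM and 10.1, 8.13 and 16.4 CPM (-0.65 ± 0.44). In the renin-angiotensin system 4 of 11 stood higher and 7 lower, with a median of -0.05 and 0 separated. Agt, angiotensinogen, which the liver secretes, stood at 592, 717 and 876 CPM and 591, 800.4 and 689 CPM (-0.07 ± 0.19), and its sign turned in 3 of the settings that left out libraries.

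Among 19 aquaporin and ion transport genes 12 stood higher, with a median of 0.12. Of these genes 2 were separated, both downward (10.5%, near the 8.69% of all genes tested in either direction). Aqp8, a water and ammonia channel of hepatocytes, stood at 244, 151 and 129 CPM on normal salt and 51, 42.8 and 83.2 CPM on high salt (-1.56 ± 0.31, adjusted p 0.00348 in DESeq2 and 0.796 in edgeR). It was lower in all 3 high salt libraries, by -2.03 in log2 between libraries 1 and 2 and by -0.62 between the libraries numbered 3. The additional libraries held it at 32.6 and 140.3 CPM (high salt) and 55.7 CPM (normal salt), and so did not separate the diets.

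Of the genes ranked first by the edgeR test, Rapgef4, a cAMP-activated exchange factor also known as Epac2 (Entrez ID 56508, GRCm38.p6 chromosome 2, 71981215 to 72257474), had the smallest p. It stood at 55.5, 69.6 and 70.6 CPM on normal salt and 139, 148 and 183 CPM on high salt (1.27 ± 0.22, adjusted p = 0.796 in edgeR and 0.000411 in DESeq2), a difference present in both pairs of libraries. The additional libraries did not separate the diets, at 90.2 and 244 CPM (high salt) and 132 CPM (normal salt). B4galt5, a lactosylceramide synthase, had narrow groups, 14.8, 13.9 and 16.1 CPM against 29.1, 29.1 and 28.3 CPM (0.95 ± 0.24), but the additional libraries held 33.3, 28.7 and 29.9 CPM, all at the high salt level whatever their diet. Il15ra, the receptor chain for interleukin 15, was at 15.3, 14.6 and 13.8 CPM and 35.9, 29.8 and 21.6 CPM (1.00 ± 0.24). The additional libraries held Il15ra in the reverse order, at 20.4 and 18.3 CPM (high salt) and 28 CPM (normal salt).

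Among the lower genes, Irf2bp2, a transcriptional co-repressor, stood at 72.5, 66 and 67.7 CPM on normal salt and 17.5, 20.4 and 31.1 CPM on high salt (-1.58 ± 0.34, adjusted p 0.00922 in DESeq2). The additional high salt libraries, at 20.1 and 46.4 CPM, lay below the normal salt one at 57 CPM. Cdcp1, a membrane protein phosphorylated by Src kinases, was at 8.34, 7.93 and 4.87 CPM and 1.89, 2.46 and 2.56 CPM (-1.61 ± 0.30), and Zbtb21, a zinc finger repressor, at 13.1, 13.9 and 9.92 CPM and 4.11, 4.52 and 7.32 CPM (-1.20 ± 0.23). The additional libraries held Cdcp1 in the reverse order, at 7.63 and 4.06 CPM (high salt) and 2.21 CPM (normal salt). Zbtb21, at 7.59 and 12.8 CPM (high salt) and 7.69 CPM (normal salt), did not separate the diets there. Loxl4, a lysyl oxidase, was at 14.6, 17.5 and 2.29 CPM and 1.19, 1.09 and 1.3 CPM, so that normal salt library 3 was close to high salt. In the additional libraries Loxl4 was at 0.931 and 2.49 CPM (high salt) and 0.699 CPM (normal salt). Lrtm1, a leucine-rich repeat protein, was at 14.4, 12.4 and 16.8 CPM and 3.14, 3.78 and 4.85 CPM (-1.88 ± 0.51). It was the 1 gene called when a term for the libraries numbered 3 was added to a fit of the 6 wild-type libraries (adjusted p 0.0302, a fit chosen after the data had been seen).

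**Figure D5:**
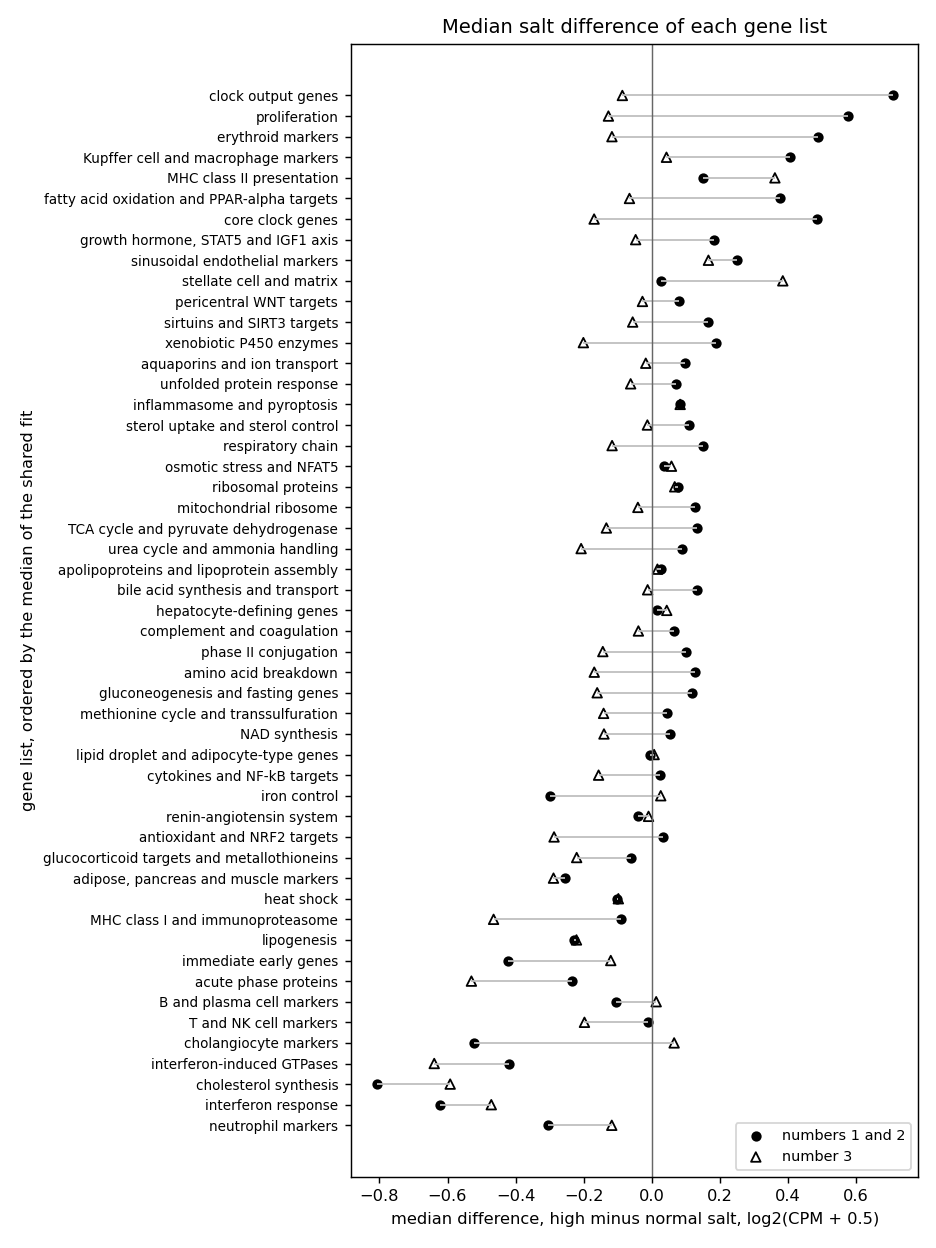
Median difference, high minus normal salt in log2(CPM + 0.5), over the members of each of 51 gene lists, ordered by the median log2 fold change of the fit. Filled circles are libraries 1 and 2 and open triangles the libraries numbered 3, joined by a line. Cholesterol synthesis and the interferon lists lie left of 0 with both symbols, and the clock and proliferation lists have circles far right and triangles left of 0.

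Across all genes, the additional libraries seldom lay as the main ones did. Of the 513 genes separated upward, 28 (5.46%) had all 3 additional libraries on their own diet's side, and of the 621 separated downward 42 (6.76%) did, where all genes tested gave 9.54%. None of the 3 was on its own side for 110 (21.4%) and 128 (20.6%) of these genes, against 17.2% of all genes. The genes that were on the own side throughout included Igfbp1, G6pc, Tat, Acly and Acat2. Of these, Acly and Acat2 did not separate the diets within the additional set. These counts bear on direction only, since diet and effective length cannot be told apart in the additional set.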

How the data were processed

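Poly(A) RNA from mouse liver was sequenced, per the labels' protocols. The authors deposited expected counts per gene (RSEM estimates, which need not be whole) for all 15 libraries, and per library the same counts with FPKM values, which were used for effective lengths and for an alternative test on log2(FPKM + 1). Bowtie2 2.2.5 and RSEM 1.2.8 were run on mm10, per the submitters' processing notes; the sources used here give neither annotation nor strandedness. RSEM divides reads among near-identical genes, so Mup, Cyp2c, Cyp2d, Cyp3a, Cyp4a, Saa, Ifit and Oas members are uncertain, as are overlapping and antisense genes. Of 18131 genes 18009 matched RefSeq on GRCm38.p6, the source of coordinates and promoter windows. No sample column was unmapped (0 columns).

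Expected counts were rounded. edgeR 4.0.16 in R 4.3.3 (filterByExpr, TMM, robust quasi-likelihood F test) fitted 4 group means to 12 libraries, with Benjamini-Hochberg adjustment over 13051 genes and a threshold of 0.05. The test was checked on simulated counts. Fold changes are log2, high minus normal salt, with SE; CPM values use scaling over all 15 libraries. Nothing in the labels says that libraries came from separate animals, so p-values cover the spread among these samples alone, which could be technical; 3 against 3 libraries cannot reach an exact permutation p below 0.1. Alternatives used DESeq2 1.42.0 and limma 3.58.1. The biological coefficient of variation was 0.272.

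Same-numbered normal and high salt libraries deviated together (correlations of 0.19, 0.11 and 0.48 for numbers 1, 2 and 3), which met the set limit of 0.1 for a block by number, although high salt library 2 correlated most with normal salt library 1 (0.40). Own-side calls compared log2(CPM + 0.5).

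The comparison, the 52 gene lists (1157 genes found) and the named genes were chosen with earlier results of these data known. Named genes were Sirt3, up to 15 higher and 15 lower by p among separated genes of at least 1 CPM in a group, every DESeq2 call, and up to 5 per list by p, plus members that describe an uncalled list. Some members counted in the lists are not reported here by name.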

Additional observations from a re-analysis of the deposited data

How the results depend on the processing

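The count of 0 called genes was the same with limma-voom, RLE and upper quartile scaling, no and a stricter filter on low counts, 6 libraries without the block, 12 libraries with it, knockout libraries left out, all 15 libraries, and limma on log2(FPKM + 1). DESeq2 called 8 (3 higher, 5 lower), the 6-library fit with the replicate block 1 (0 higher, 1 lower), a term for the libraries numbered 3 called 1 (0 and 1), and leaving out both libraries numbered 3 gave 30 (7 and 23). Leaving out 1 library at a time gave 0 to 10 calls, 0 to 2 higher and 0 to 8 lower: 10 without high salt library 3, 3 without normal salt library 3 and 1 without high salt library 1. The block changed no other call. The additional set gave 3 calls (0 higher, 3 lower), 28 with DESeq2 (13 and 15), and 1 to 1 without either high salt library (0 to 1 higher, 0 to 1 lower).

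Of 1883 log2 fold changes of 90 genes in the text under these settings, 11 had the opposite sign, in 7 genes. Leaving out 1 library at a time, the range was -1.56 to 0.29 for Ifit1, -1.62 to 0.11 for Isg15 and -1.15 to 0.47 for Usp18, positive without normal salt library 1. It was -2.51 to 0.26 for Orm2, positive without normal salt library 3. It was -0.20 to 0.078 for Agt, positive without high salt library 1 or normal salt library 3, and -0.94 to 0.072 for Mup7, positive without high salt library 3 or normal salt library 2. Without both libraries numbered 3 the fold change was 0.048 for Orm2, 0.072 for Agt and 0.057 for Pck1 (-1.001 to -0.12 without 1 library). The cause was not tested. Of 572 list medians 49 moved by more than the spread between replicates. Depth limits genes near 3 counts per library.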

Other observations

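Lists outside the report's comparisons mostly had medians near the 0.02 of all genes. Ribosomal protein genes stood higher in 39 of 40 with a median of 0.08 and 0 separated, and respiratory chain genes in 42 of 48 with a median of 0.09 and 0 separated; both lists were low in the libraries numbered 3, where their mean log2 levels were -0.40 and -0.34 on normal salt and -0.32 and -0.44 on high salt. Bile acid genes (15 higher, 13 lower of 28, median 0.05), complement and coagulation (23 and 18 of 41, 0.02), urea cycle (8 and 5 of 13, 0.05), phase II conjugation (18 and 18 of 36, 0.01) and the unfolded protein response (19 and 11 of 30, 0.11) had 0.11 or less as their median. Cyp2e1, the ethanol-metabolizing P450, was separated upward, at 5683, 5733 and 6043 CPM on normal salt and 8652, 7756 and 7794 CPM on high salt (0.47 ± 0.21), and at 8827 and 4505 CPM in the additional high salt libraries and 9795 CPM in the normal salt one.

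Transcripts of heart muscle were counted in some livers. These genes were named after their values were seen. Actc1, cardiac actin, had 16, 20 and 39 counts in normal salt libraries 1, 2 and 3 and 1 count in each high salt library. In the additional set it had 0 and 1 counts on high salt and 18 on normal salt, and in the labelled Sirt3 knockout libraries 24, 0 and 2 counts on high salt and 0, 0 and 1 on normal salt. Myh6, cardiac myosin heavy chain, had 42, 14 and 1 counts on normal salt and 0 in all 3 high salt libraries, which allows up to 3 counts, or up to 0.172 CPM, in a library. Its counts were 29 in the additional normal salt library, 0 in both additional high salt ones, and 32, 0 and 0 in the labelled knockout on high salt. Myh7 had 30, 20 and 0 counts on normal salt, 0 in all 3 high salt libraries and 34 in the additional normal salt library. The other 10 heart muscle genes counted did not split by diet: Tnnc1 had 18, 20 and 2 counts on normal salt and 15, 21 and 4 on high salt, Myl4 had 14, 9 and 2 against 31, 12 and 11, Tnni3 had 2, 6 and 2 against 1, 3 and 2, and Ryr2 had 6, 2 and 0 against 6, 5 and 6.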
